A study of Mus musculus with 6 samples.

Results

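Cyclins, the cyclin-dependent kinases (CDKs) they switch on and the inhibitors that hold those kinases back were followed in mouse peritoneum, the membrane lining the abdominal cavity. The set holds every gene whose symbol is that of a lettered cyclin (Ccna to Ccny), a numbered CDK (Cdk followed by digits only) or begins with Cdkn1, Cdkn2 or Cdkn3, which gave 50 of the 14943 genes in the deposited table. By role, 13 are cyclins and kinases of the cell cycle, 13 are cyclins and kinases that act on transcription, 7 are CDK inhibitors and 17 are atypical members or genes caught by name. The name rule leaves out the unrelated matrix proteins Ccn1 to Ccn6, as well as Cdk11b. RNA was sequenced from wild-type C57BL/6J male mice, 8 weeks old, in 6 libraries. The 3 control libraries came from mice given saline into the abdomen, and the 3 libraries of the encapsulating peritoneal sclerosis (EPS) model from mice given daily dialysis solution (4.25%, 100 mL/kg) with 0.3 mL of an agent labelled SHS, plus weekly lipopolysaccharide at 4 mg/kg, all intraperitoneally. Tissue was collected in week 3. Because the model mice received all agents together, effects of single agents cannot be told apart, and the labels do not say whether each library is 1 animal, so p-values measure the spread between these libraries.

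A cyclin has no activity of its own. It binds a CDK and exposes its active site, and the pair then phosphorylates proteins that move the cell to the next phase. D-type cyclins with Cdk4 and Cdk6 answer growth signals and inactivate the retinoblastoma proteins, which frees E2F factors to transcribe genes for DNA synthesis. E-type cyclins with Cdk2 start DNA replication, cyclin A carries it through, and B-type cyclins with Cdk1 drive mitosis. Transcriptional pairs work on RNA polymerase II and its cofactors and are needed in resting cells as well: cyclin H with Cdk7 in TFIIH, cyclin C with Cdk8 or Cdk19 in the Mediator complex, cyclin T with Cdk9 in the elongation factor P-TEFb, and cyclin K with Cdk12 or Cdk13. The Cip/Kip inhibitors (Cdkn1a, Cdkn1b and Cdkn1c, known as p21, p27 and p57) bind cyclin-CDK pairs, whereas the INK4 inhibitors (Cdkn2a to Cdkn2d) bind Cdk4 and Cdk6.

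Totals ran from 15419232 to 17684229 counts per library, and a single count was worth 0.0470 to 0.0714 CPM (counts relative to the library size, which was scaled by the TMM method). The highest correlation of log2 CPM between groups was 0.801 and the lowest within a group 0.926. Genes of pancreatic acinar cells took 10.9% of counts in EPS 1 and at most 0.244% in each other library. All 5 mesothelial markers were detected, with summed levels of 117 to 182 CPM in control and 36.8 to 193 CPM in EPS, and none passed the test.

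The mitotic members that moved together are shown by their promoter sequence, because such promoters are known for CHR elements, which MuvB complexes bind, and CCAAT boxes, which NF-Y binds. Sequences are from the RefSeq promoter table of GRCm38.p6, which had a window of 250 bases before to 50 after the start for 40 of the 50 members. Each line reads 5′ to 3′ on the gene's strand, and capitals mark matches, on either strand, to the CHR element (TTTGAA), the CCAAT box, or an E2F site (TTTCCCGC, TTTGGCGC, TTTCGCGC or TTTGCCGC). Positions count back from the RefSeq start, whose first upstream base is -1. Cdkn3 and Cdk13 are added as a second kind of member that rose and as a transcriptional kinase. The stretches below are Cdk1 from -146 to -27 (chr10:69352939-69353058, minus strand) and from -27 to -1, Ccnb1 from -204 to -85 (chr13:100786571-100786690, minus strand) and from -79 to -50, Ccnb2 from -120 to -1 (chr9:70421555-70421674, minus strand), Ccnf from -195 to -76 (chr17:24251485-24251604, minus strand) and from -26 to -1, Cdkn3 from -120 to -1 (chr14:46760421-46760540, plus strand) and Cdk13 from -120 to -1 (chr13:17805098-17805217, minus strand).
Cdk1: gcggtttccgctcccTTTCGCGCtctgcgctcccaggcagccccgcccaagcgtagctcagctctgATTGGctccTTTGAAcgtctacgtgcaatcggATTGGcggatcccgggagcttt
Cdk1, next to the start: taccgcggcgagTTTGAAactgctggc
Ccnb1: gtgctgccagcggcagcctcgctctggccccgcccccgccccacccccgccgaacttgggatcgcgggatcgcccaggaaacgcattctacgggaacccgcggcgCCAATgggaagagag
Ccnb1, nearer the start: gccacgaactggCCAATgaggagcgagcgg
Ccnb2: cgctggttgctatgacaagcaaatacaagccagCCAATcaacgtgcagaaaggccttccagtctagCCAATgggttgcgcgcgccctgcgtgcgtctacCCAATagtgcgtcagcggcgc
Ccnf: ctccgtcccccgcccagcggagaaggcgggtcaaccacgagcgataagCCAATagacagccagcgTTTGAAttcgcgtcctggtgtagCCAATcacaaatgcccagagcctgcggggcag
Ccnf, next to the start: gctcccggcgcgTTTGAAaacggggc
Cdkn3: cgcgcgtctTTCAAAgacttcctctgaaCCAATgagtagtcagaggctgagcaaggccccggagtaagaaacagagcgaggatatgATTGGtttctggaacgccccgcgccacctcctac
Cdk13: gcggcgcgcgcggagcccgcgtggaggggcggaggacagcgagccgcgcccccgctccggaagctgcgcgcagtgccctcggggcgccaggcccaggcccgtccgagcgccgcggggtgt

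The CHR letters were in the window of 3 of the 4 S and M phase genes with an entry (Cdk1, Ccnb2 and Ccnf, not Ccnb1), against 20.2% of the 27025 genes that have a window. Ccna2, the other gene of this set, had no window, and the set was taken from genes that rose. In Cdk1 and Ccnf a copy lies close to the start, at -15 and -14, and Ccnb2 has copies at -167 and +5. CCAAT was in all 4, against 41.1% of genes, and Ccnb2 carries 3 copies at -87, -54 and -21. It was also in 4 of the 6 inhibitors with a window, and in 22 of all 40 members with a window, or 55.0%. An E2F match was in Cdk1, at -131, against 2.60% of genes. Among the 11 transcriptional members with a window, none held the CHR letters or an E2F match and 5 held CCAAT. Over all 40 members with a window 7 held the CHR letters, or 17.5%, which is below the share of all genes. Besides Cdk1, Ccnb2 and Ccnf these were Cdkn3, which rose in EPS, and Ccni, Cdk16 and Cdkn2b, which were called lower. E2F letters were also in Cdk2 and Cdkn2a. A match is a description of these letters, not evidence of binding.

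Of the 50 members, all passed the filter on low counts, and 21 were higher and 12 lower in EPS at an adjusted p under 0.05 (edgeR's quasi-likelihood test). Over all 13980 genes tested, 59.6% were called, 29.2% as higher and 30.4% as lower. The share of members called, 66.0%, was therefore near the background, and the classes differed in direction and size. Every EPS library lay above every control for 22 members (33.1% of all tested genes) and below for 15 (35.4%), and for 13 the groups overlapped. Among the 13 cell cycle members 10 rose and 1 fell, and their median log2 fold change was 1.46. Among the 13 transcriptional members 6 rose and 1 fell, the median being 0.23 and the range -0.81 to 0.76. The 7 inhibitors had a median of -0.78, 4 of them falling and 2 rising. The 17 others had a median of -0.17, 6 of them falling and 3 rising. The median over all tested genes was -0.02. These medians are descriptions, and the difference between classes was not tested. With library totals in place of TMM the median gene moved from -0.02 to 0.41, and 25 members were higher and 6 lower.

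**Figure D1:**
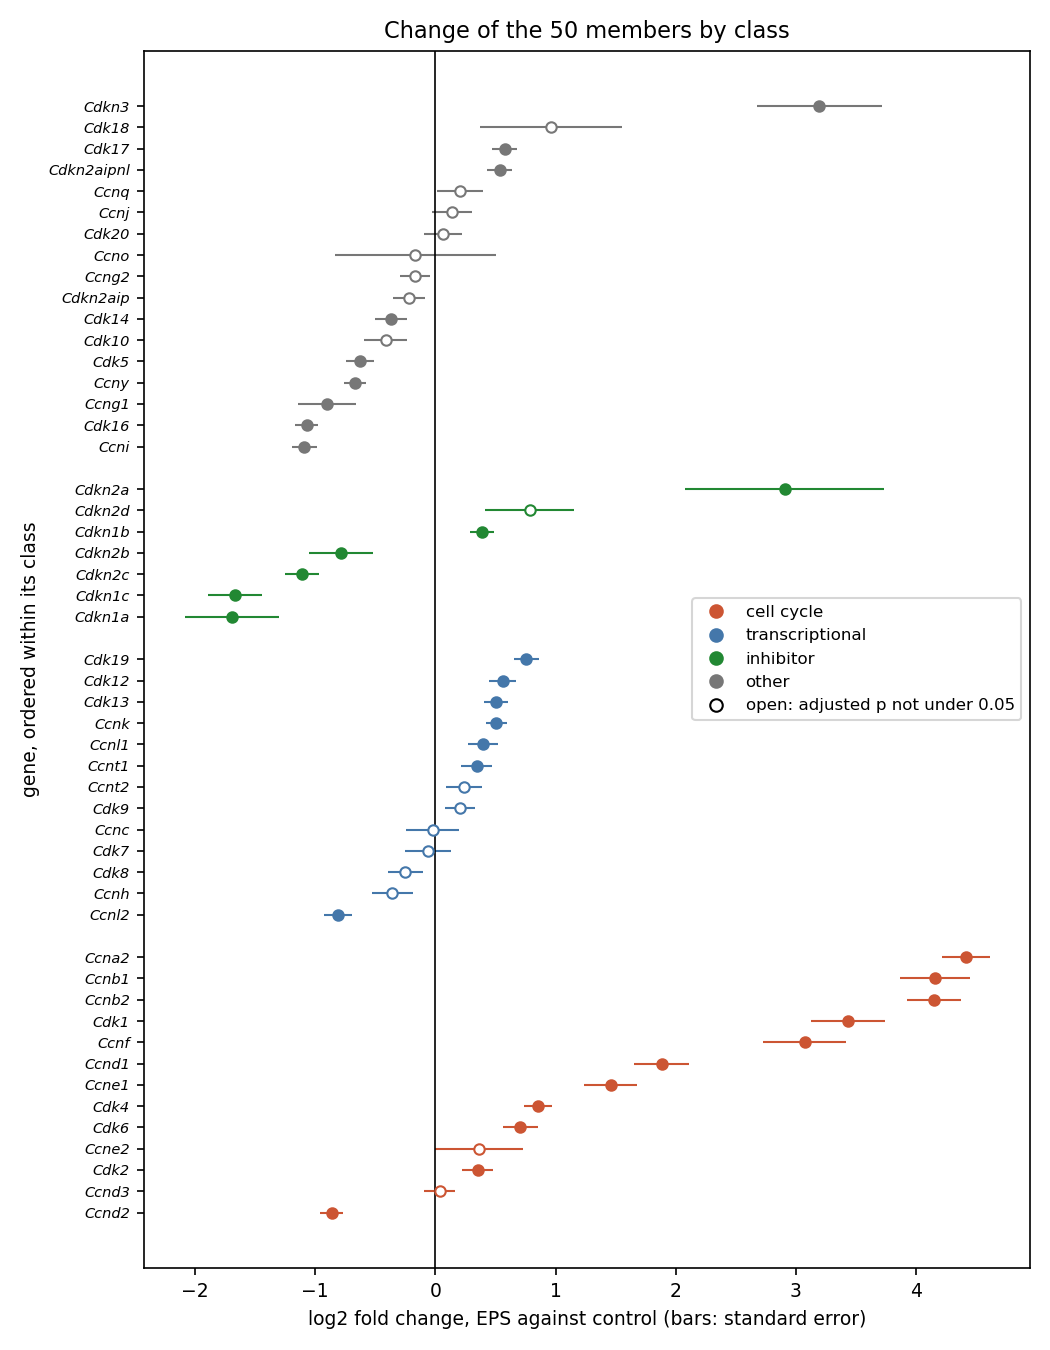
Log2 fold change of EPS against control for the 50 members, grouped by class, with standard errors. Filled points passed at an adjusted p under 0.05. The 5 cell cycle points above 3 are Ccna2, Ccnb1, Ccnb2, Cdk1 and Ccnf, and transcriptional members lie between -0.81 and 0.76.

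Cyclin A2, the partner of Cdk2 in S phase and of Cdk1 after it, had the largest fold change of the 50. Ccna2 (chromosome 3, 36564865 to 36572150) stood at 2.57, 2.05 and 1.52 CPM in controls 1 to 3 and at 42.5, 45.4 and 42.8 CPM in EPS 1 to 3. All EPS libraries were high and close to each other, and the groups did not overlap. The gene rose 21.3-fold, or 4.41 ± 0.20 on the log2 scale (adjusted p = 2.44e-06). Exosc9, whose exons cover 12.5% of the exon length of Ccna2 on the opposite strand, was at 9.64 CPM in control and 9.37 CPM in EPS (adjusted p = 0.861).

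The B-type cyclins, which activate Cdk1 and must be destroyed for mitosis to end, rose to like degrees. Ccnb1 (chromosome 13, 100778650 to 100786570) stood at 1.21, 1.32 and 0.595 CPM in controls and at 17.5, 17.2 and 21.4 CPM in EPS. Every EPS library was far above every control, where 9 to 20 reads per library set the precision. It rose 17.8-fold (4.16 ± 0.29, adjusted p = 1.28e-05). Ccnb2 (chromosome 9, 70407692 to 70421547) stood at 1.14, 1.06 and 1.12 CPM in controls and at 17.4, 17.7 and 24.2 CPM in EPS, with EPS 3 the highest. It rose 17.7-fold (4.15 ± 0.22, adjusted p = 3.78e-06). Ccnb1, Ccnb2 and Ccnd3 each have an annotated pseudogene of their own name, so reads shared with those copies are uncertain.

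Cdk1, the kinase of mitosis (chromosome 10, 69335146 to 69352938), stood at 1.36, 1.12 and 1.12 CPM in controls and at 9.29, 11.9 and 17.8 CPM in EPS. It was high in all EPS libraries, with a spread larger than that of Ccna2. Its increase was 10.8-fold (3.43 ± 0.31, adjusted p = 4.16e-05). Cyclin F, a cyclin that works as the substrate receptor of a ubiquitin ligase rather than with a CDK, also rose: Ccnf stood at 3.29, 1.52 and 1.39 CPM in controls and at 19.5, 14.0 and 18.6 CPM in EPS. The groups did not overlap, and the gene rose 8.41-fold (3.07 ± 0.35, adjusted p = 1.46e-04). Every one of the 15 alternative settings called these 5 genes higher.

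The E-type cyclins, which bind Cdk2 at the start of S phase, parted. Ccne1 stood at 6.00, 4.56 and 4.30 CPM in controls and at 14.1, 10.9 and 15.8 CPM in EPS and rose 2.75-fold (1.46 ± 0.22, adjusted p = 6.79e-04). Its groups did not overlap. Ccne2 stood at 1.57, 1.59 and 2.71 CPM in controls and at 3.26, 2.30 and 2.03 CPM in EPS, with overlapping groups and no call (0.36 ± 0.37, adjusted p = 0.423). The difference between the paralogs was not tested. Ints8 overlaps 17.4% of the exon length of Ccne2 on the opposite strand. Ints8 was at 14.2 CPM in control and 17.1 CPM in EPS (adjusted p = 0.291), whereas Ccne2 had only 22 to 49 reads per library. Their kinase Cdk2 stood at 40.8, 35.7 and 34.7 CPM in controls and at 42.7, 44.0 and 55.1 CPM in EPS, a rise of 1.27-fold (0.35 ± 0.13, adjusted p = 0.0483). That call sat at the threshold and was lost under 9 of the 15 alternatives, among them leaving out control 1, 2 or 3 or EPS 2 or 3, with adjusted p from 0.00802 to 0.155.

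**Figure D2:**
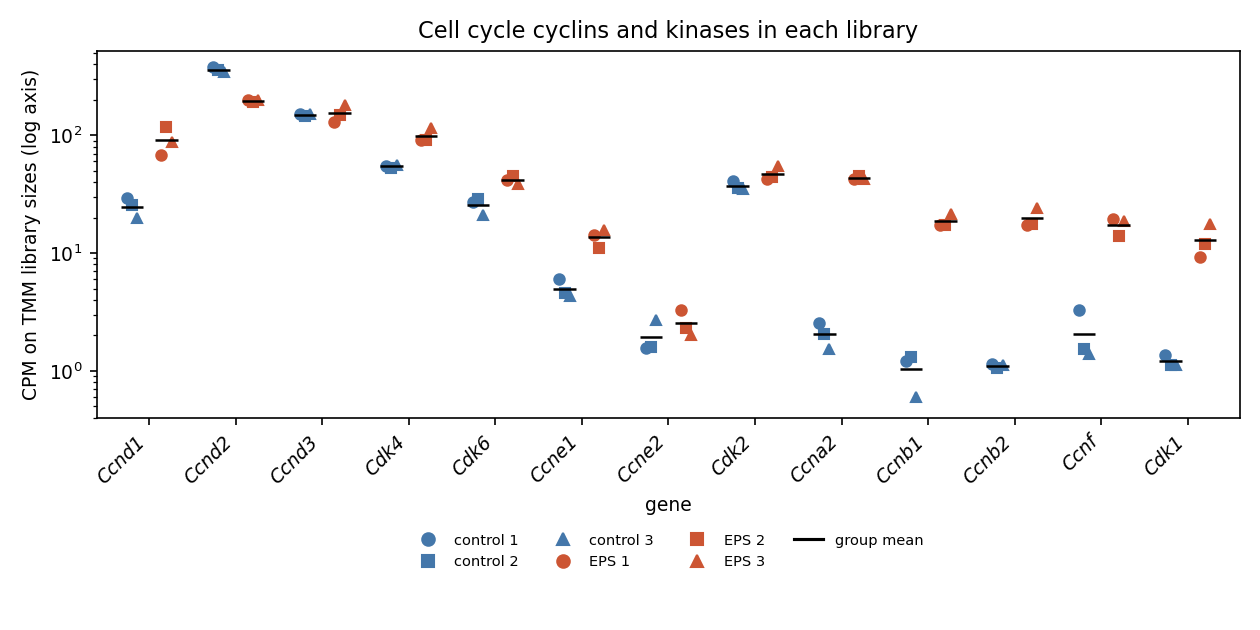
CPM of the 13 cell cycle members in each library on a log axis, with group means as bars. Ccna2, Ccnb1, Ccnb2, Ccnf and Cdk1 lie at or below 3.29 CPM in controls and at 9.29 CPM or above in EPS, while Ccnd2 is lower in EPS.

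D-type cyclins moved in opposite directions. Ccnd1 (chromosome 7, 144929931 to 144939925) stood at 29.4, 25.4 and 19.8 CPM in controls and at 68.4, 118 and 88.5 CPM in EPS. Every EPS library was above every control, and EPS 2 was the highest. The gene rose 3.68-fold (1.88 ± 0.23, adjusted p = 2.69e-04). LTO1 overlaps 23.4% of its exon length on the opposite strand and was at 16.1 CPM in control and 18.3 CPM in EPS (adjusted p = 0.303).

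Ccnd2 (chromosome 6, 127125162 to 127152193) stood at 379, 357 and 342 CPM in controls and at 201, 192 and 199 CPM in EPS, so that both groups were tight and apart. It fell 1.82-fold (-0.86 ± 0.10, adjusted p = 1.41e-04), but with library totals the value was -0.44 and did not pass (adjusted p = 0.0729). Ccnd3, a D-type cyclin that lymphocytes depend on, stood at 152, 146 and 152 CPM in controls and at 131, 150 and 181 CPM in EPS. Its groups overlapped and it was not called (0.04 ± 0.13, adjusted p = 0.818); without EPS 3 its direction turned, to -0.10.

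Levels were also divided by exon length, taken over all annotated transcripts of a gene. Which transcripts were expressed was not examined, so orders between genes, here and in the places given below, depend on that length. On this scale Ccnd2 was the highest D-type cyclin in controls, at 38.2 ± 1.97 CPM per kb (SD, n = 3). Ccnd3 stood at 17.1 ± 0.374 and Ccnd1 at 5.28 ± 1.02. In EPS the 3 genes stood at 21.0 ± 0.471, 17.5 ± 2.92 and 19.4 ± 5.25 CPM per kb (Ccnd2, Ccnd3 and Ccnd1). Ccnd2 was above Ccnd3 in all 3 EPS libraries, at 21.3 against 14.9, 20.4 against 17.1 and 21.1 against 20.7 CPM per kb, whereas Ccnd1 lay below Ccnd2 in EPS 1 and EPS 3 and above it in EPS 2. As a share of D-type cyclin reads per exon length, Ccnd1 took 9.76%, 8.99% and 7.27% in controls and 28.6%, 40.0% and 31.0% in EPS, and Ccnd2 took 63.1%, 63.2% and 62.9% in controls and 42.1%, 32.7% and 34.9% in EPS. Neither set of shares overlapped between groups (exact two-sided permutation p = 0.1 for each, the smallest that 3 against 3 allows). The Ccnd3 share was 28.3% ± 1.42 in controls and 30.3% ± 3.49 in EPS (exact permutation p = 0.6), and reads shared with its pseudogene would enter all 3 shares. The mean share of Ccnd1 was 24.5 percentage points higher in EPS, or 15.9 points with reads not divided by length.

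**Figure D3:**
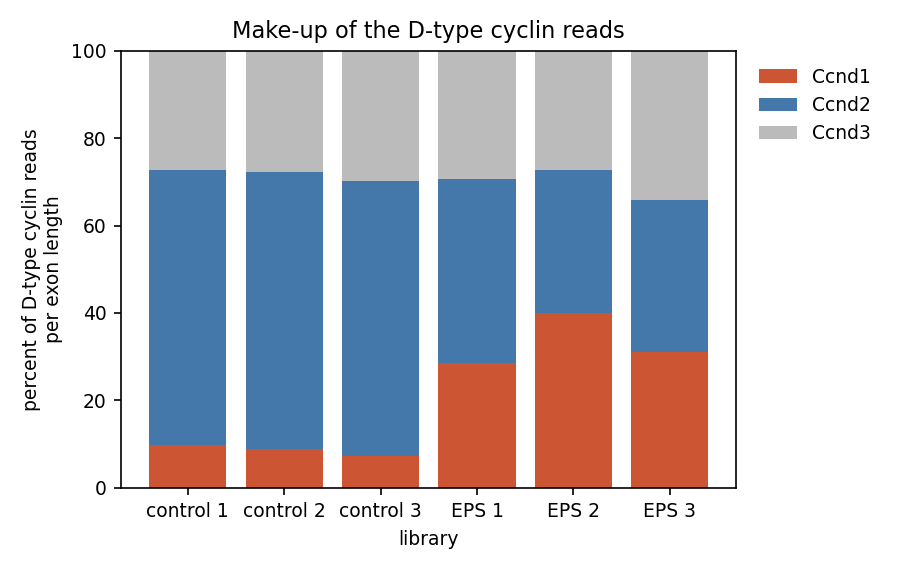
Share of each D-type cyclin in the D-type cyclin reads per exon length, by library. Ccnd1 makes up 7.27% to 9.76% in the controls and 28.6% to 40.0% in EPS, and Ccnd2 shrinks from about 63.1% to between 32.7% and 42.1%.

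Both kinases of the D-type cyclins rose. Cdk4 (chromosome 10, 127063534 to 127067920) stood at 55.3, 52.99 and 55.7 CPM in controls and at 90.7, 90.6 and 114 CPM in EPS, 1.80-fold higher (0.85 ± 0.12, adjusted p = 4.36e-04). The EPS libraries all lay above the controls. Tspan31 covers 19.7% of its exon length on the opposite strand and was at 39.8 CPM in control and 33.4 CPM in EPS (adjusted p = 0.0859). Cdk6 stood at 27.3, 28.6 and 21.0 CPM in controls and at 41.6, 45.5 and 38.2 CPM in EPS, 1.63-fold higher (0.70 ± 0.15, adjusted p = 0.00369), again without overlap. Per exon length Cdk4 was the second highest of the 50 members in EPS, at 30.4 ± 4.23 CPM per kb, and the 11th highest in control.

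Other genes of the division machinery moved with these members, where 29.2% of all tested genes were called higher. All 13 genes of a list of dividing cells rose, with summed levels of 20.6 to 22.0 CPM in control and 267 to 323 CPM in EPS and a median log2 fold change of 3.68. Rrm2, a subunit of ribonucleotide reductase, Tpx2, a spindle assembly factor, Top2a, a topoisomerase, and Bub1b, a checkpoint kinase, rose by 4.16 ± 0.15, 3.28 ± 0.15, 4.74 ± 0.22 and 3.06 ± 0.17. Of 15 phosphatases, kinases and ubiquitin ligases that act on CDKs and mitosis, 14 rose and 1, Pkmyt1, was not called (0.43 ± 0.23). Among them were the mitotic kinase genes Aurkb (3.49 ± 0.19), Plk1 (3.51 ± 0.27) and Aurka (2.25 ± 0.23), and Cdc20 (3.17 ± 0.28), which directs the degradation of B-type cyclins.

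In the list of E2F factors, retinoblastoma family proteins and MuvB subunits, 11 of 19 genes rose, 4 fell and 4 did not pass. That is 78.9% called, beside 59.6% of all tested genes. E2f8, a repressor E2F, rose by 4.72 ± 0.22, and the mitotic transcription factors Foxm1 and Mybl2 by 2.80 ± 0.13 and 3.40 ± 0.25. The activator gene E2f2 rose by 2.48 ± 0.20. The members of the retinoblastoma family, named after their values were seen, did not move as a block: Rb1 fell from 57.2 to 26.2 CPM (-1.13 ± 0.15), Rbl1 rose from 10.9 to 33.3 CPM (1.61 ± 0.15), and Rbl2 was at 61.5 CPM in control and 63.0 CPM in EPS.

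Against the summed level of the 13 dividing-cell genes, a ratio added after the data were seen, the members kept different pace. Ccna2 stood at 11.7, 9.42 and 7.37 CPM per 100 CPM of that list in controls and at 13.2, 17.0 and 14.8 in EPS, higher without overlap. For Ccnb1, Ccnb2 and Cdk1 the ratios overlapped between groups, at 4.83 ± 1.71 and 6.41 ± 0.999 for Ccnb1, 5.17 ± 0.294 and 6.79 ± 1.495 for Ccnb2, and 5.59 ± 0.517 and 4.50 ± 1.65 for Cdk1 (control and EPS, SD, n = 3). Ccnf, in contrast, was lower in EPS without overlap, at 14.9, 6.99 and 6.73 in controls and 6.05, 5.22 and 6.42 in EPS, where control 1 was high and the other libraries lay close together. Ratios were also lower in EPS without overlap for Ccne1, at 23.0 ± 3.68 against 4.64 ± 0.713, for Ccne2, at 9.19 ± 3.42 against 0.857 ± 0.153, and for Ccnd1, at 115 ± 18.9 against 31.9 ± 11.5. The Cdkn3 ratios overlapped. The sum of the list was 20.6 to 22.0 CPM in control and 267 to 323 CPM in EPS. A gene that rose clearly less than this sum, or did not change, therefore has a lower ratio by construction. No share over all genes stands beside these ratios. They carry no test and are read across libraries, not across genes.

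Levels of cell type markers also differed between groups, where 29.2% of all tested genes were called higher and 30.4% lower. All 8 markers of T and NK cells rose, with summed levels of 7.20 to 9.99 CPM in control and 306 to 567 CPM in EPS, as did all 6 of B and plasma cells (8.52 to 23.4 and 823 to 1119 CPM; Mzb1 at 0 in controls 2 and 3). All 6 neutrophil markers rose (4.17 to 4.63 and 319 to 720 CPM; Ly6g at 0 in every control, S100a8 in control 1), and so did all 5 of dividing granulocyte precursors (2.25 to 4.56 and 42.5 to 325 CPM; Ms4a3 and Ctsg at 0 in every control, Mpo in controls 2 and 3) and all 6 macrophage markers (404 to 434 and 1793 to 2013 CPM). Of 5 germinal centre B cell markers tested, 4 rose and 1 fell (44.1 to 51.4 and 57.0 to 72.9 CPM; Rgs13, not tested, at 0 in every control). All 6 adipocyte markers fell, from summed levels of 14534 to 15395 CPM to 1064 to 1594 CPM, and all 5 of blood endothelium fell (1969 to 2176 and 871 to 1058 CPM). Of 5 fibroblast markers 2 rose (1738 to 1803 and 2792 to 5049 CPM). These were Col1a1, from a mean of 461 to 2233 CPM, and Lum, from 69.1 to 233 CPM. Pdgfra, Dcn and Dpt were not called, and Dpt was lower in every EPS library. Of 5 skeletal muscle markers 2 rose and 1 fell (32.9 to 48.4 and 7.83 to 68.2 CPM). Of 4 erythroid precursor markers tested 1 rose (25.3 to 228 and 10.8 to 93.1 CPM, with Ermap at 0 in control 3). None of 7 acinar markers passed (242 to 2803 and 121 to 116491 CPM). The part of these cells in the changes of cyclins, kinases and inhibitors was not tested, and in bulk tissue fewer cells of a type and less RNA per cell cannot be told apart.

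Among CDK inhibitors, 2 of the 3 Cip/Kip genes fell and 1 rose. Cdkn1a (p21), the inhibitor that p53 induces (chromosome 17, 29090976 to 29100727), stood at 122, 132 and 285 CPM in controls and at 39.4, 71.6 and 55.4 CPM in EPS. Control 3 was more than the other controls by a wide margin, and all EPS libraries were below all controls. The gene was 3.24-fold lower (-1.69 ± 0.39, adjusted p = 0.00974), and without EPS 3 it did not pass (-1.69 ± 0.55, adjusted p = 0.0559; range over the alternatives 1.94e-06 to 0.0559); without control 3 its value was -1.20 (adjusted p = 0.00681).

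Cdkn1c (p57), an imprinted gene, stood at 13.9, 16.0 and 17.7 CPM in controls and at 3.53, 5.59 and 5.75 CPM in EPS, 3.18-fold lower and without overlap (-1.67 ± 0.23, adjusted p = 3.79e-04). An antisense gene that is not analysed here, Gm44732, covers 30.7% of its exon length. Cdkn1b (p27), which holds cells in quiescence, stood at 63.9, 71.6 and 65.4 CPM in controls and at 90.9, 80.8 and 91.3 CPM in EPS, 1.31-fold higher (0.39 ± 0.10, adjusted p = 0.0101). Its groups did not overlap, and without control 1 the call was lost (adjusted p = 0.0532; range over the alternatives 0.00176 to 0.0532).

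The INK4 inhibitors also split. Cdkn2c (p18), the most abundant of them per exon length in both groups (chromosome 4, 109660876 to 109667189), stood at 125, 124 and 124 CPM in controls and at 48.2, 55.1 and 69.4 CPM in EPS. It was 2.16-fold lower (-1.11 ± 0.14, adjusted p = 2.51e-04) and kept its call under all 15 alternatives. Cdkn2b (p15) stood at 14.3, 15.3 and 17.7 CPM in controls and at 6.31, 8.03 and 12.98 CPM in EPS, 1.72-fold lower (-0.78 ± 0.26, adjusted p = 0.0329). Its call was lost under 8 of 15 alternatives, including without any one control and without EPS 1 or EPS 2, with adjusted p from 0.00177 to 0.411; without EPS 1 its log2 fold change was -0.51.

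Cdkn2a (chromosome 4, 89274471 to 89294653), whose locus encodes both p16 and the p53 activator ARF, which these gene counts do not separate, was barely detected in controls. It had 6, 3 and 0 reads there, or 0.428, 0.198 and 0 CPM, where 0 reads allow up to 0.198 CPM, and 11, 49 and 33 reads in EPS, or 0.762, 2.30 and 1.63 CPM. The EPS libraries were above the controls, with EPS 1 closest to them. The fitted increase was 2.91 ± 0.83 (adjusted p = 0.0162), and it moved to 3.90 without control 1, to 2.32 without control 3 and out of the call without control 2 (adjusted p = 0.0673). Cdkn2d (p19) stood at 9.14, 6.15 and 7.14 CPM in controls and at 11.02, 7.28 and 20.3 CPM in EPS, with overlapping groups and no call (0.78 ± 0.37, adjusted p = 0.106). Without EPS 2 it passed (1.07, adjusted p = 0.0188).

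**Figure D4:**
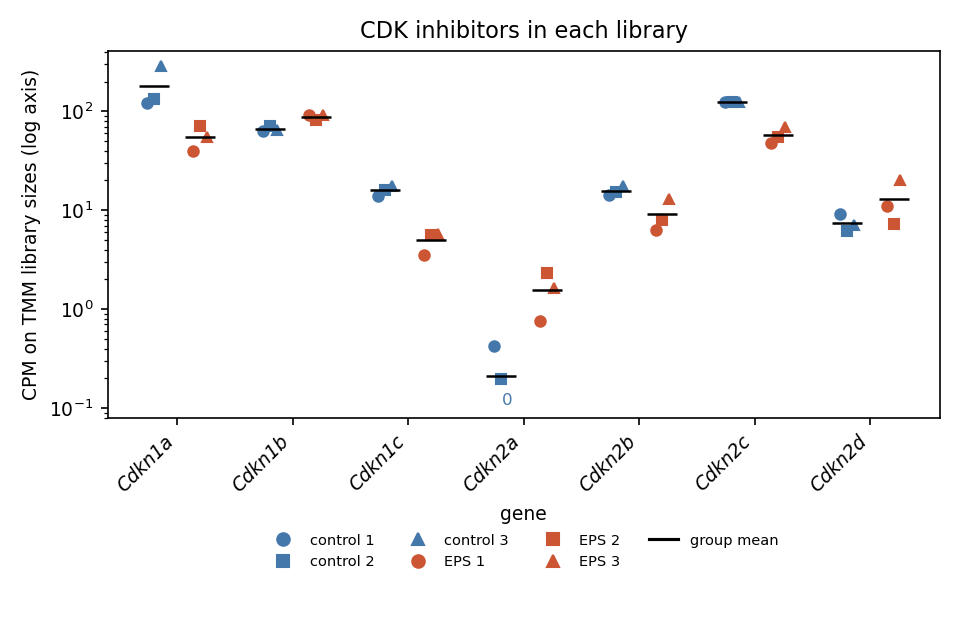
CPM of the 7 CDK inhibitors in each library on a log axis, with group means as bars; a library without reads is marked 0. Cdkn1a, Cdkn1c, Cdkn2b and Cdkn2c are lower in every EPS library, and control 3 is the high point of Cdkn1a at 285 CPM.

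Other genes of the p53 response were mixed. Of 13 genes in a list of p53 and its targets, which does not hold Cdkn1a or Ccng1, 5 rose, Trp53 itself among them, 1 fell and 7 did not pass. That is 46.2% called, beside 59.6% of all genes. Ccng1, a p53-induced cyclin, fell, as given with the atypical members. Trp53 itself rose by 1.36 ± 0.15, its targets Trp53inp1 and Mdm2 rose by 1.65 ± 0.28 and 0.40 ± 0.09, and Phlda3 fell from 377 to 56.6 CPM (-2.73 ± 0.31).

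Transcriptional members changed by smaller amounts than the mitotic ones, and their 7 calls of 13 stood beside a background of 59.6%. Cdk19, a kinase of the Mediator complex, stood at 38.7, 32.8 and 38.4 CPM in controls and at 60.1, 62.8 and 62.6 CPM in EPS, 1.69-fold higher (0.76 ± 0.10, adjusted p = 3.76e-04). Its groups were tight and apart. Its paralog Cdk8 stood at 36.5, 38.3 and 35.5 CPM in controls and at 37.5, 27.6 and 27.6 CPM in EPS and was not called (-0.25 ± 0.15, adjusted p = 0.169), though it passed as lower without EPS 1 (-0.34, adjusted p = 0.0323) and turned to 0.14 with library totals. Cyclin C, which both kinases bind, was at 9.84 ± 1.82 CPM in control and 9.71 ± 1.81 CPM in EPS (SD, n = 3).

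Both kinases of cyclin K, which phosphorylate the tail of RNA polymerase II along long genes, rose together with it. Cdk12 stood at 48.6, 52.3 and 43.4 CPM in controls and at 77.7, 70.2 and 65.0 CPM in EPS (0.56 ± 0.11, adjusted p = 0.00306). Cdk13 stood at 74.4, 82.0 and 70.1 CPM in controls and at 111, 102 and 108 CPM in EPS (0.51 ± 0.10, adjusted p = 0.00281). Neither gene's groups overlapped. Ccnk stood at 38.3, 39.9 and 40.9 CPM in controls and at 56.4, 56.4 and 56.3 CPM in EPS (0.51 ± 0.09, adjusted p = 0.00144). The 3 genes kept their calls under all 15 alternatives.

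The cyclin L genes, which bind Cdk11 and act in splicing, went opposite ways. Ccnl2 stood at 232, 207 and 257 CPM in controls and at 141, 123.5 and 133 CPM in EPS, 1.75-fold lower (-0.81 ± 0.11, adjusted p = 4.59e-04), and with library totals it did not pass (-0.40, adjusted p = 0.0905). Ccnl1 rose by 0.40 ± 0.13 (adjusted p = 0.0262), a call lost under 4 of 15 alternatives, among them without control 1 or control 2 (highest adjusted p 0.113). In P-TEFb, Ccnt1 rose by 0.34 ± 0.13 (adjusted p = 0.0495), a call lost under 7 of 15 alternatives, including without any one control and without EPS 2 (0.00333 to 0.149). Its paralog Ccnt2, at 0.23 ± 0.15, and their kinase Cdk9, at 0.21 ± 0.12, did not pass. Both passed as higher with library totals (adjusted p = 0.0086 and 0.0212). The groups overlapped for Ccnt2, whereas for Cdk9 every EPS library lay above every control, as for 33.1% of all tested genes. The TFIIH pair did not pass either, with Cdk7 at -0.06 ± 0.19 and Ccnh at -0.36 ± 0.17, and both turned positive (0.39 and 0.05) with library totals.

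Partners of the transcriptional kinases were as mixed: of 14 genes, 4 rose, 4 fell and 6 did not pass. That is 57.1% called, near the 59.6% of all tested genes. Polr2a, the largest subunit of RNA polymerase II, rose by 0.59 ± 0.11. Med12l, a subunit of the Mediator kinase module, and Ell, an elongation factor, fell by 1.65 ± 0.28 and 0.68 ± 0.11 on the log2 scale. The P-TEFb inhibitor genes Hexim1 and Hexim2, named after their values were seen, fell by 0.50 ± 0.10 and 1.33 ± 0.29. Larp7, of the same list and also named after its value was seen, rose by 0.86 ± 0.16.

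Of the remaining 17 members the largest change was that of Cdkn3, a phosphatase that acts on CDKs and is itself made in dividing cells. It had 6, 5 and 2 reads in controls (0.428, 0.330 and 0.132 CPM) and 36, 42 and 77 in EPS (2.49, 1.97 and 3.81 CPM), a rise of 9.16-fold (3.19 ± 0.52, adjusted p = 9.89e-04). No EPS library overlapped the controls. Cdkn2aipnl and Cdk17, a kinase related to Cdk16, rose by 0.54 ± 0.10 and 0.58 ± 0.11.

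All 6 that fell were atypical cyclins or kinases. Ccni, an atypical cyclin and the highest of the 50 per exon length in both groups (153 ± 5.94 and 71.8 ± 3.58 CPM per kb), stood at 493, 495 and 528 CPM in controls and at 225, 238 and 248 CPM in EPS. It was 2.13-fold lower (-1.09 ± 0.10, adjusted p = 5.23e-05), with tight groups. Cdk16, a kinase that cyclin Y activates, stood at 241, 252 and 229 CPM in controls and at 118, 119 and 107 CPM in EPS, 2.10-fold lower (-1.07 ± 0.10, adjusted p = 3.89e-05). The groups again lay apart.

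Ccng1, a cyclin that p53 induces, stood at 125, 134 and 116 CPM in controls and at 92.8, 62.4 and 45.6 CPM in EPS, 1.87-fold lower (-0.90 ± 0.24, adjusted p = 0.0133). All EPS libraries lay below the controls, and they varied among themselves by more than those of Cdk16. Ccny, the membrane-bound partner of Cdk14 and Cdk16, fell by 0.67 ± 0.09 and Cdk5, a kinase best known from neurons, by 0.63 ± 0.11 on the log2 scale, and neither passed with library totals (adjusted p = 0.282 and 0.370). Cdk14 was called lower (-0.37 ± 0.13, adjusted p = 0.0427), kept that call under 4 of 15 alternatives, lost it on leaving out any one library but EPS 2, and had the opposite sign (0.07) with library totals.

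The other 8 did not pass. Cdk18, a kinase related to Cdk16, stood at 8.50, 8.06 and 6.94 CPM in controls and at 30.8, 9.40 and 5.94 CPM in EPS (0.96 ± 0.59, adjusted p = 0.204). EPS 1, the library with 10.9% acinar counts, was the high one, and whether the acinar cells have a part in it was not tested. Ccno, which multiciliated cells use, was near or below 1.54 CPM in every library. Ccnj, Ccng2, the Cdk10 partner Ccnq, Cdk10, Cdk20 and Cdkn2aip had log2 fold changes between -0.41 and 0.21, and Cdk10, the lowest, passed without EPS 3 (-0.53, adjusted p = 0.0382).

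The order of the members by level per exon length was thus partly rebuilt. Ccna2 went from the 44th to the 17th place of 50, Ccnb2 from the 42nd to the 16th and Ccnd1 from the 25th to the 8th, while Cdkn1a went from the 3rd to the 14th and Cdkn1c from the 18th to the 40th. Ccni, Cdk16, Ccnl2 and Cdkn2c remained among the first 6 places in both groups.

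**Figure D5:**
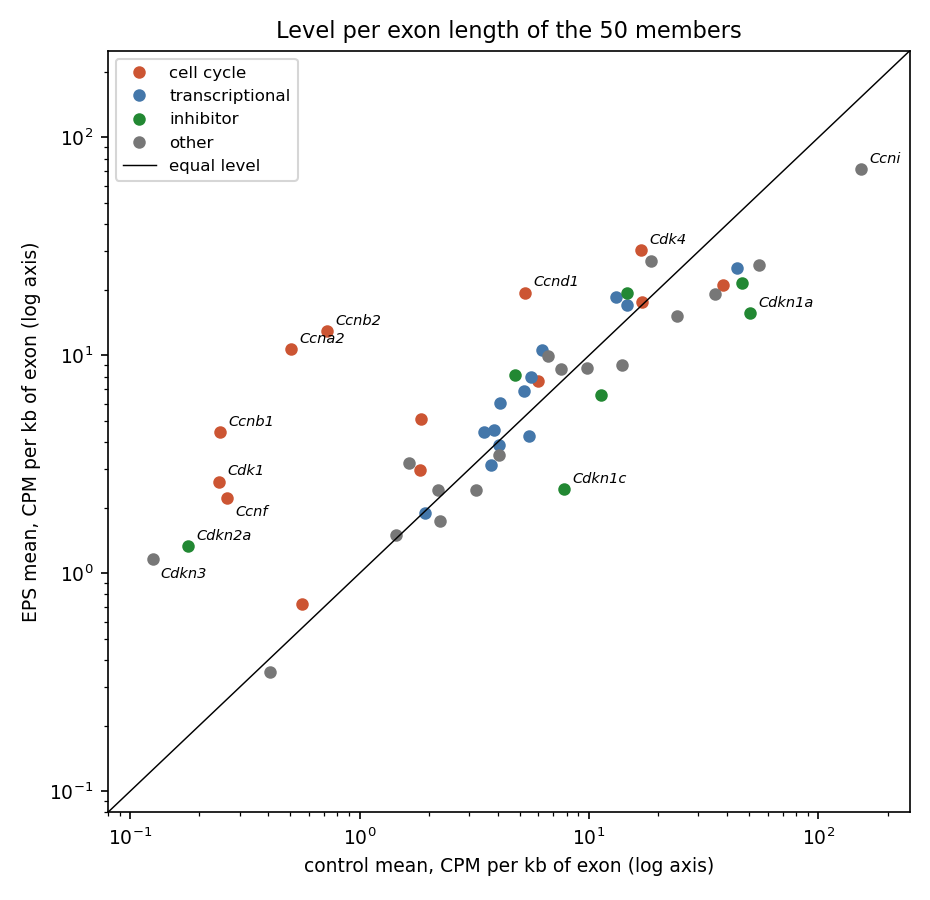
Mean level per exon length of the 50 members in EPS against control, on log axes, coloured by class; the line marks equal levels. Ccna2, Ccnb1, Ccnb2, Cdk1 and Ccnf lie far above the line, and Cdkn1c and Cdkn1a below it.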

How the data were processed

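Polyadenylated RNA of peritoneum was sequenced, per the labels' protocols, from 3 control and 3 EPS libraries. The authors deposited raw counts of reads per gene symbol, not normalized; per the submitters' processing notes the build was mm10, whereas no aligner, counter or annotation is named in the sources used here. No step marking strand is named, so reads of genes that overlap on opposite strands cannot be told apart: 22 members share exon bases with another annotated gene. From the counts, 13980 genes passed edgeR's filterByExpr, libraries were scaled by TMM, and the groups were tested against each other with edgeR (quasi-likelihood, robust dispersions) in version 4.0.16 under R 4.3.3, with Benjamini-Hochberg adjustment over all tested genes and calls under 0.05. After a log2 fold change, ± gives the standard error. Exon lengths, which join the exons of all annotated transcripts of a gene, and gene bodies (1-based) are from GENCODE vM21 of GRCm38, the assembly mm10 denotes. Ccna1, Ccnb3, Cdk3 and Cdk15 are not analysed here. The test was first tested on simulated data.

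The members, roles and gene lists were chosen with earlier results of these data known. Full statistics are given for called cell cycle members and inhibitors and for the 4 largest changes among called transcriptional and other members. Further members given with their values, such as Ccnk, Cdk8 and Cdk18, fall outside this rule. Up to 4 called genes of lowest adjusted p are named per pathway list, and further genes of those lists named after their values were seen are marked. One gene that the rule would name is not reported here. The alternatives were RLE and upper-quartile factors, library totals, DESeq2 1.42.0, limma-voom (limma 3.58.1), no filter, a replicate block, each library left out, controls 1 and 2 averaged, and acinar genes removed. Controls 1 and 2 were closer than any other pair (mean chi-square per gene 4.41, where sampling noise gives about 1) and were counted as 2 samples.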

Additional observations from a re-analysis of the deposited data

How the results depend on the processing

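Of the 33 called members, 21 kept direction and call under all 15 alternatives, and 12 lost the call under at least 1. Library totals left the fewest members with the same direction and call, 32, whereas RLE and upper-quartile factors left 47 and 48. Leaving out 1 library left 43 to 45. Calls lost without a change of direction numbered 5 with library totals and 6 each without control 1 or control 2. With library totals only, 2182 genes in all and 6 members were lower in EPS, with 0 called lower among the cell cycle members (1 at an unadjusted p under 0.05, and 1 called by DESeq2 and by limma-voom with their own scaling) and 0 among the transcriptional members (0 at an unadjusted p, 1 called by DESeq2 and by limma-voom). With that scaling 9 log2 fold changes turned positive: Ccng2 (0.26), Ccno (0.33), Cdk10 (0.036), Cdk14 (0.068), Cdkn2aip (0.21), Ccnc (0.38), Ccnh (0.048), Cdk7 (0.39) and Cdk8 (0.14). Of these Cdk14 alone was called. Ccnc, at -0.02, also turned positive with RLE factors (0.031), upper-quartile factors (0.015) and DESeq2 (0.029), and ranged from -0.17 to 0.12 over the libraries left out. Over libraries left out, Ccno ranged from -0.74 to 0.37, Cdk7 from -0.17 to 0.17 and Ccnd3 from -0.10 to 0.22. Under the alternatives other than library totals, the count of transcriptional members called lower ranged from 1 to 2, the latter without EPS 1. With controls 1 and 2 averaged, 18 members were higher and 10 lower.

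Same-numbered libraries of the groups did not deviate together in every case (correlations of 0.20, -0.10 and 0.24 for numbers 1 to 3), and EPS 2 correlated best with control 3, so the numbers are not taken as pairs. With the replicate number as a block, 19 members were higher and 11 lower, 9 and 1 of them cell cycle members and 5 and 1 transcriptional, against 3947 and 4166 genes in all. Depth limits Cdkn2a, Cdkn3, Ccno, Ccne2 and the mitotic members in controls, where each library held at most 46 reads of any of these genes.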

Other observations

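Among 11 genes with a cyclin or CDK name outside the rule, 2 rose, 2 fell and 7 did not pass, a share called of 36.4% beside 59.6% of all tested genes. Cdk5r1, which encodes p35, the activator of Cdk5, rose from 1.58 ± 0.112 to 6.08 ± 1.14 CPM (SD, n = 3) (1.94 ± 0.27, adjusted p = 4.55e-04), while Cdk5 itself fell. Cdk5rap2, a centrosome protein, rose by 0.95 ± 0.17. Cdk2ap1, a partner of Cdk2, and Ccnyl1, a paralog of cyclin Y, fell by 0.71 ± 0.12 and 0.58 ± 0.13 on the log2 scale. Cdk11b, the partner of the cyclin L proteins, was at 72.1 CPM in control and 69.6 CPM in EPS (adjusted p = 0.713).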
